A study of Mus musculus with 2 samples.

Results

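The coenzyme Q synthesis genes were taken by symbol from a table of FPKM values (fragments per kb of transcript, scaled to the reads of the library) of brown preadipocytes and brown adipocytes. The 10 genes are Pdss1, Pdss2, Coq2, Coq3, Coq4, Coq5, Coq6, Coq7, Coq9 and Coq10a. All 10 were found, each in 1 row, among 23361 rows with values of 27324 rows in all. RNA-Seq was performed on 2 libraries, 1 per stage. The D0 library came from preadipocytes that were isolated from brown fat between the shoulder blades of newborn C57BL/6 mice, and the D7 library from such cells after differentiation. By the labels, cells of both libraries were grown in medium with 20% serum. From 4 days before day 0 they were in differentiation medium with 10% serum, insulin at 0.1 μM and the thyroid hormone T3 at 1 nM. For D7, adipogenesis was then induced for 2 days with indomethacin at 0.125 mM, dexamethasone at 2 μg/ml and the phosphodiesterase inhibitor IBMX at 0.5 mM. The labels call the cells primary cultures, whereas the study's methods describe immortalization with large T and give other doses. The study's methods give 4 mice of either sex, aged 1 day. Whether cells of several animals were pooled is not given in the sources used here.

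Coenzyme Q is a lipid of the inner mitochondrial membrane that takes electrons from complexes I and II and from several dehydrogenases and hands them to complex III. It consists of a ring, derived from tyrosine, and a long isoprenoid tail, derived from the mevalonate pathway. The tail is built by a synthase of PDSS1 and PDSS2 subunits and is joined to the ring by COQ2. The ring is then hydroxylated and methylated in the mitochondrion by a complex of COQ proteins. Brown adipocytes are rich in mitochondria, and their heat production rests on electron flow through this chain.

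With 1 library per stage there were no replicates, so no test was run. Fragment numbers were estimated from single-exon genes, which gave a library size of 21471000 fragments for D0 and of 18265000 for D7. Intervals given with a ratio are exact 95% Clopper-Pearson intervals on such estimates. Only counting error is in them, not the spread between cultures. The 6 adipocyte markers were all higher at D7, from a ratio of 31.5 for Cebpa to one of 5848 (1618 to 48292) for Plin1, which rested on about 2 fragments at D0. Of 5 brown adipocyte markers, Ucp1, Cidea and Elovl3 were listed at 0 at D0, and at D7 the FPKM of Ucp1 was 4.57. The other two had ratios of 48.8 (Cox7a1) and 119 (Ppargc1a). Of 6 preadipocyte markers, 2 were higher and 4 lower at D7, with a median ratio of 0.849 and a range from 0.340 for Pdgfrb to 8.29 for Cd34. Of these, Pdgfrb and Thy1 were lower by at least 2.0-fold. Of 8 macrophage markers, 7 were at least 2.0-fold higher at D7, with a summed FPKM of 145 at D0 and 512 at D7. Their ratios ran from 1.06 for Cd14 to 35.8 for Mrc1. All 5 endothelial markers were at or under an FPKM of 1.62 at D7, with ratios from 0.181 for Cdh5 to 3.11 for Tek. Of 5 skeletal muscle markers, Myod1 and Ckm were listed at 0 in both libraries and Myog at D0. Acta1 of the same list measured 45.4 FPKM at D0 against 1.73 at D7, a ratio of 0.0381, and Mylpf had one of 1.48 at levels below 1 FPKM. The part of macrophages or muscle cells in the values of the coenzyme Q genes was not tested. In such bulk libraries, fewer cells of a type and less RNA per cell cannot be told apart.

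All 10 coenzyme Q synthesis genes had a higher FPKM at D7 than at D0, against 50.6% of the 14986 genes above 0 in both libraries, and 7 of the 10 were at least 2.0-fold higher, against 18.5% of all genes. Of the 11967 genes that reached an FPKM of 1 in a library, as every member did, 48.7% were higher at D7 and 15.6% at least 2.0-fold higher. None of the 10 was lower by at least 2.0-fold, against 13.2% of all genes. The median log2 ratio of D7 to D0 was 1.12 over the 10 genes, a ratio of 2.17, and 0.015 over all genes. The 10 ratios ran from 1.35 for Coq4 to 4.64 for Coq6. Their SD on the log2 scale was 0.645, and that of all genes was 1.48. The sum of the 10 FPKM values came to 107.5 for D0 and 315 for D7, 2.93 times as much.

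**Figure D1:**
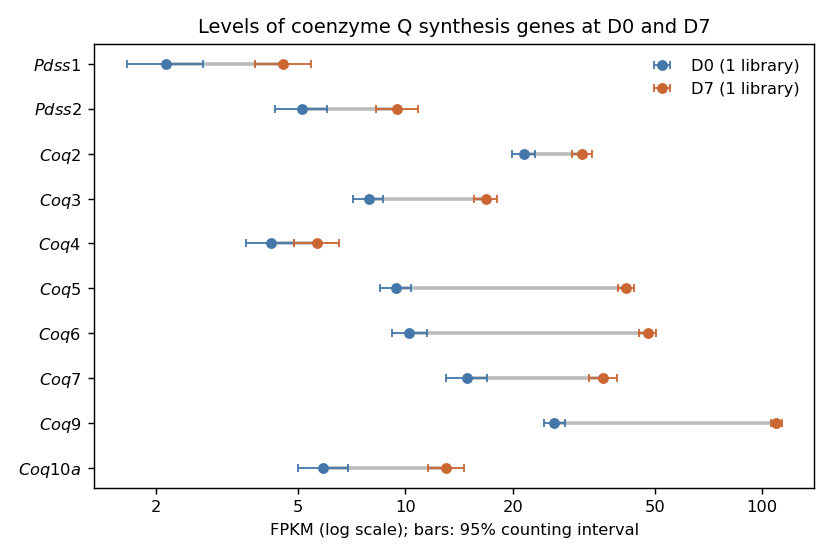
FPKM of each coenzyme Q synthesis gene on a log axis, with D0 in blue and D7 in orange, 1 library each. Bars are 95% counting intervals. Each orange point lies to the right of its blue point, and the bars of both stages overlap for Coq4.

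Both subunits of the tail synthase were among the genes with lower levels. Pdss1 (ENSMUSG00000026784.14, plus strand of chromosome 2 of mm10, 22895522 to 22940266) encodes its catalytic subunit. Pdss1 measured 2.14 FPKM at D0 against 4.56 at D7, on about 67 and 122 fragments. It had the lowest FPKM of the 10 at each stage. Its ratio of 2.13 had an interval from 1.57 to 2.91, which includes 2.0. Its deposited locus extends to 23040240 over Abi1 on the other strand, so its value is uncertain. Pdss2 (ENSMUSG00000038240.13, plus strand of chromosome 10, 43221486 to 43464882) encodes the partner subunit. Pdss2 measured 5.14 FPKM at D0 against 9.50 at D7. The D7/D0 ratio of 1.85 (1.49 to 2.30) did not reach 2.0. The FPKM of Pdss2 was 2.40 times that of Pdss1 at D0 and 2.08 times at D7.

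Coq2 (ENSMUSG00000029319.8, minus strand of chromosome 5, 100654723 to 100675140) encodes the prenyltransferase that joins tail and ring. It measured 21.5 FPKM at D0 against 31.3 at D7, on about 721 and 892 fragments. The D7/D0 ratio of 1.46 (1.32 to 1.61) was the second lowest of the 10, and its interval lay below 2.0. With the shortest annotated coding transcript of at least 300 bases as length, the interval was 1.06 to 2.004 and included 2.0. Coq2 was the second most abundant of the 10 at D0 by FPKM and the fifth at D7.

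The genes of ring modification fell into a group with ratios over 4 and a group with lower ratios. Coq6 (ENSMUSG00000021235.13, plus strand of chromosome 12, 84361657 to 84373796) encodes a flavin monooxygenase that hydroxylates the ring. It measured 10.3 FPKM at D0 against 47.7 at D7, a D7/D0 ratio of 4.64 (4.10 to 5.27). This ratio was above those of 93.0% of all genes. Coq5 (ENSMUSG00000041733.10, plus strand of chromosome 5, 115279666 to 115296972) encodes the methyltransferase that acts on a carbon of the ring. It measured 9.41 FPKM at D0 against 41.5 at D7, a D7/D0 ratio of 4.41 (3.93 to 4.95). Coq9 (ENSMUSG00000031782.15, plus strand of chromosome 8, 94838321 to 94854895) encodes a lipid-binding protein that works with COQ7. It measured 26.2 FPKM at D0 against 109 at D7, a D7/D0 ratio of 4.18 (3.88 to 4.51). Intervals of these 3 genes overlapped one another. The lowest of their bounds, 3.88, was above the highest bound of the other members, 2.91 for Pdss1. This gap depended on the transcript lengths used. With the shortest annotated coding transcript of at least 300 bases as length, the interval of Pdss1 was 1.06 to 4.43. It then overlapped those of all 3 genes, whose lowest bound was 3.72 for Coq9.

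Coq7 (ENSMUSG00000030652.11, minus strand of chromosome 7, 118509659 to 118533356) encodes the hydroxylase that acts late in the pathway. It measured 14.9 FPKM at D0 against 35.8 at D7, a D7/D0 ratio of 2.41 (2.06 to 2.83). Coq9 thus had 1.76 times the FPKM of its partner Coq7 at D0 and 3.06 times at D7. Coq3 (ENSMUSG00000028247.2, plus strand of chromosome 4, 21879673 to 21912162) encodes the methyltransferase that acts on oxygens of the ring. It measured 7.90 FPKM at D0 against 16.8 at D7. The ratio of Coq3 was 2.13 (1.88 to 2.40), so its interval included 2.0. The other methyltransferase gene, Coq5, had 1.19 times the FPKM of Coq3 at D0 and 2.47 times at D7.

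Coq4 (ENSMUSG00000026798.10, plus strand of chromosome 2, 29787493 to 29797935) encodes a component of the ring-modifying complex. It had the smallest ratio of the 10, with 4.20 FPKM at D0 against 5.67 at D7. The D7/D0 ratio of 1.35 had an interval from 1.09 to 1.68. With the shortest annotated coding transcript of at least 300 bases as its length, the interval was 0.860 to 2.13 and included 1. This held for 1 of the 10 genes. Coq4 overlaps Trub2 on the other strand. The deposited loci of Coq2, Coq5 and Pdss2 also overlap annotated genes on the other strand. The study's methods describe enzymatic removal of the second cDNA strand, but whether counting used strand is not given in the sources used here. Coq10a (ENSMUSG00000039914.6, minus strand of chromosome 10, 128363100 to 128368997) encodes a START-domain protein that binds coenzyme Q and is not itself a synthesis enzyme. It measured 5.90 FPKM at D0 against 13.0 at D7, a D7/D0 ratio of 2.21 (1.82 to 2.70).

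**Figure D2:**
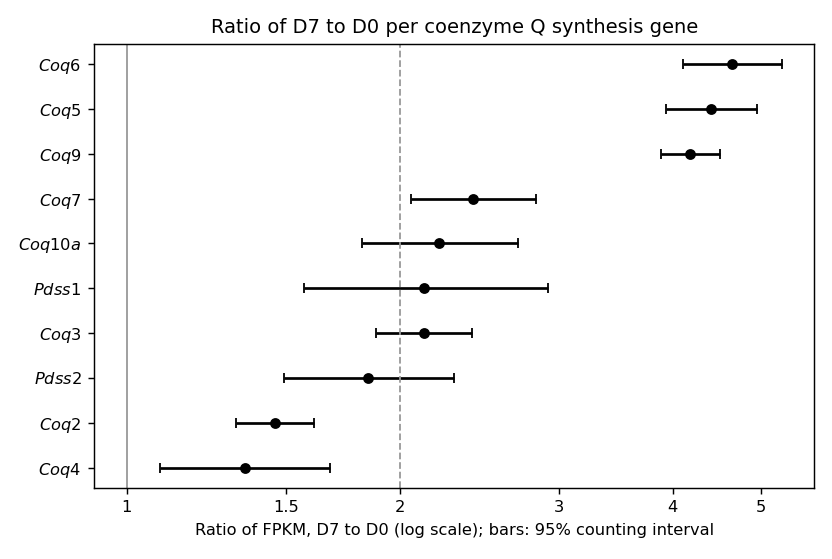
Ratio of FPKM at D7 to D0 per gene on a log axis, with 95% counting intervals as bars, 1 library per stage. The solid line marks 1 and the dashed line 2.0. Coq6, Coq5 and Coq9 lie above 4, and Coq4 and Coq2 below 1.5.

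Near the threshold of 2.0-fold, the members just above it were Coq3 at 2.13, Pdss1 at 2.13 and Coq10a at 2.21, and the member just below it was Pdss2 at 1.85. The intervals of these 4 genes included 2.0. Intervals above 2.0 were found for 4 genes, Coq5, Coq6, Coq7 and Coq9, and intervals below 2.0 for 2 genes, Coq2 and Coq4. With the shortest coding transcript as length, the intervals of Coq2 and Coq4 included 2.0. The shares of all genes with intervals above or below 2.0 were not computed. The count of 7 genes therefore rests on 3 genes that counting error alone does not place on one side of the threshold.

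At D0 the order of FPKM was Coq9, Coq2, Coq7, Coq6, Coq5, Coq3, Coq10a, Pdss2, Coq4 and Pdss1. Counting intervals of neighbours overlapped between Coq6 and Coq5, Coq5 and Coq3, Coq10a and Pdss2, and Pdss2 and Coq4. At D7 the order was Coq9, Coq6, Coq5, Coq7, Coq2, Coq3, Coq10a, Pdss2, Coq4 and Pdss1. The last 5 places were the same at both stages, from Coq3 at rank 6 to Pdss1 at rank 10, and the change of order lay in ranks 2 to 5. At D7 the neighbours Coq7 and Coq2, and Coq4 and Pdss1, had overlapping intervals. The highest FPKM was 12.2 times the lowest at D0 and 24.0 times at D7. Coq9 made up 24.4% of the summed FPKM of the 10 genes at D0 and 34.7% at D7, whereas Coq2 went from 20.0% to 9.92%.

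**Figure D3:**
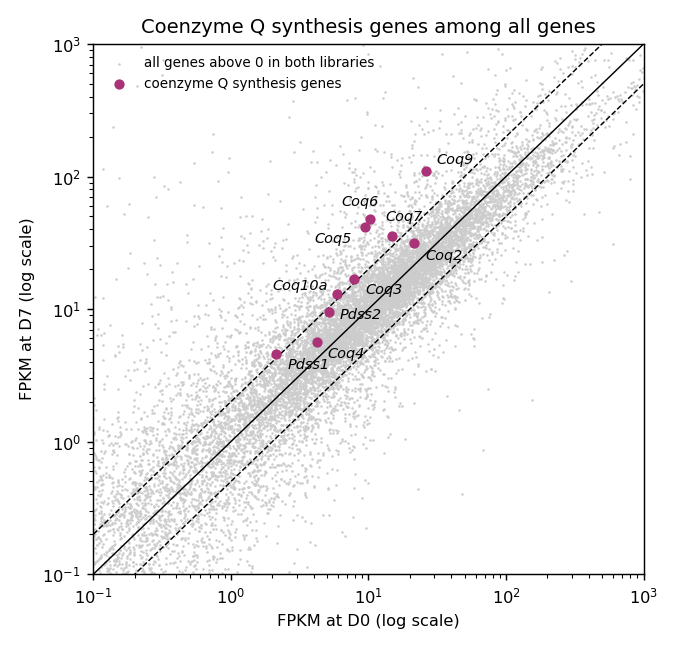
FPKM at D0 against FPKM at D7 on log axes, for all 14986 genes above 0 in both libraries in grey and the 10 coenzyme Q synthesis genes in purple. The solid line marks equal values and the dashed lines a 2.0-fold difference. All 10 purple points lie above the solid line, and 7 lie above the upper dashed line.

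The windows around annotated starts are shown for the genes at both ends of this range, Coq6 and Coq9 for their high ratios, Coq4 for the smallest ratio and Pdss1 for the lowest level. RefSeq windows of GRCm38.p6 (mm10), from 250 bases before to 50 bases after a start, were matched for 9 of the 10 genes in 11 windows. Coq5 was not matched. The deposited locus of Coq4 starts at 29788263, downstream of its window, which therefore does not hold that start. Capitals mark exact matches to 5 motifs, searched on both strands. They are GCGCANGCG for NRF1, TNAAGGTCA for the ERR receptors, CCGGAAG for ETS factors such as GABPA, AAGATGGCG for YY1 and GGTCANAGG as the core of the PPAR/RXR repeat. Each sequence is written 5′ to 3′ on the strand of its gene.
Coq6, chr12:84361718-84362017, plus strand: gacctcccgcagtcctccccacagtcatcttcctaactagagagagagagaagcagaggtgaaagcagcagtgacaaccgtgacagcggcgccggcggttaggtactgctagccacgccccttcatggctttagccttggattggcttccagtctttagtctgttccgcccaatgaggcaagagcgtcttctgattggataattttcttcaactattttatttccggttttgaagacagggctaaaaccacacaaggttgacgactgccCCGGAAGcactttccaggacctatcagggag
Coq9, chr8:94838163-94838462, plus strand: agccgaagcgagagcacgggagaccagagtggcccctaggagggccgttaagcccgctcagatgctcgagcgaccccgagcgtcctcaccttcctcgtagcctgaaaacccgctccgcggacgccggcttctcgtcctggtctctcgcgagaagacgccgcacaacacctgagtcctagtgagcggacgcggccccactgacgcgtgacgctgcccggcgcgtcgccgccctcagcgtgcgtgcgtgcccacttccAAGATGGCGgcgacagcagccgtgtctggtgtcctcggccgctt
Pdss1, chr2:22895272-22895571, plus strand: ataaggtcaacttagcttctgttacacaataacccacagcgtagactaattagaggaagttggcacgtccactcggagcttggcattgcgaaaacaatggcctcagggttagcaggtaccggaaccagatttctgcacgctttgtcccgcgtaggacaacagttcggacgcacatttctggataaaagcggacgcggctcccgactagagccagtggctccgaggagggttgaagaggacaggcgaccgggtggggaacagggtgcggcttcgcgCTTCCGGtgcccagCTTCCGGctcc
Coq4, chr2:29787243-29787542, plus strand: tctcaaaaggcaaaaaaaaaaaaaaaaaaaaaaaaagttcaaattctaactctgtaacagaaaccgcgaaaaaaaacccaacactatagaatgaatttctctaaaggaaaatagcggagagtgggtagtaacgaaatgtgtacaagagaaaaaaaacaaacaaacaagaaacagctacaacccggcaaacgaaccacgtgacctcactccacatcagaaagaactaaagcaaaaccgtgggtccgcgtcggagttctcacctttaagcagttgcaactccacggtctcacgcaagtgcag

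The ETS motif was present in 3 of the 11 windows, those of Coq6, Pdss1 and Pdss2, and in 8.86% of all 32851 windows. The window of Pdss1 held it at 2 places. The YY1 motif was in the window of Coq9 and in 1.40% of all windows. The NRF1 motif was in 1 of 2 windows of Coq3 and in 6.25% of all windows. The PPAR/RXR core was in 1 of 2 windows of Coq10a and in 1.72% of all windows, and the ERR motif was in none of the 11 windows and in 1.28% of all. No matches overlapped. The ETS motif was in windows of Coq6, with a ratio of 4.64, and of Pdss2, with a ratio of 1.85. Whether any of these motifs goes with the ratios was not tested. The median window of the members held 18 CpG pairs and a GC content of 56.7%, against 7 CpG pairs and 52.7% over all windows. The set of all windows was not limited to genes with a value above 0 in these libraries. A match describes these letters and is not a measured binding site.

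Another 10 genes of coenzyme Q function, from a written list, showed a wider spread. Of these, 8 were higher and 2 lower at D7, 5 were higher by at least 2.0-fold, and the median log2 ratio was 0.91. Coq8a (listed as Adck3) encodes an atypical kinase of the COQ complex. It measured 1.22 FPKM at D0 against 27.8 at D7, a D7/D0 ratio of 22.8 (18.7 to 28.1). Its paralog Coq8b (listed as Adck4) measured 11.7 FPKM at D0 against 14.5 at D7, a D7/D0 ratio of 1.24 (1.10 to 1.40). Coq8a thus had 0.104 times the FPKM of Coq8b at D0 and 1.91 times at D7, so the order of the kinase genes was turned between the libraries.

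A similar contrast was seen for the coenzyme Q binding pair. Coq10b measured 31.6 FPKM at D0 against 25.0 at D7, a D7/D0 ratio of 0.790 (0.717 to 0.870), while that of Coq10a was higher at D7. The level of Coq10a was 0.187 times that of Coq10b at D0 and 0.523 times at D7, so Coq10b remained the more abundant. Hpdl encodes a dioxygenase that supplies the ring precursor. It had the largest ratio of this list, 31.8 (14.3 to 88.0), from about 6 fragments at D0 and 154 at D7. Aifm2, a coenzyme Q reductase also known as FSP1 that counters lipid peroxidation, measured 7.92 FPKM at D0 against 78.0 at D7, a D7/D0 ratio of 9.85 (8.97 to 10.8).

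The electron supply of COQ6 comes from ferredoxin reductase and ferredoxin. The reductase gene Fdxr measured 5.16 FPKM at D0 against 6.73 at D7, a D7/D0 ratio of 1.30 (1.07 to 1.59). Fdx2 (listed as Fdx1l) had the smallest ratio of the list, 0.650 (0.553 to 0.763), with 32.1 FPKM at D0 against 20.8 at D7. Fdx1 had a ratio of 2.10 (1.80 to 2.46). The values of Coq6 and of its electron donors thus moved by different amounts. Stard7, which encodes a lipid transfer protein that takes part in coenzyme Q transport, had a ratio of 3.01 (2.77 to 3.27), and the mitochondrial phosphatase gene Pptc7 one of 1.68 (1.52 to 1.85).

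Genes of the mevalonate pathway, which supplies the isoprenoid units of the tail, differed in direction. Of the 8 genes summarised, 3 were higher and 5 lower at D7, with a median log2 ratio of -0.19. Mvk, mevalonate kinase, measured 28.3 FPKM at D0 against 18.8 at D7, a D7/D0 ratio of 0.665 (0.595 to 0.742), the smallest of these 8. Fdps, which makes farnesyl diphosphate, had a ratio of 0.751 (0.717 to 0.787). Acat2 and Pmvk passed 2.0-fold in the other direction, with ratios of 2.49 and 4.14. In the other branches that use farnesyl diphosphate, 6 of 6 genes were higher but 1 passed 2.0-fold, Cox10 of heme A synthesis with a ratio of 2.33 (2.04 to 2.66). The smallest ratio of these branches was that of Fntb, a subunit of protein farnesyltransferase, at 1.09 (0.945 to 1.26).

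Genes whose products use coenzyme Q were higher at D7 in each of 3 lists. Of 9 genes for enzymes that reduce coenzyme Q outside complex I, 8 were at least 2.0-fold higher, with a median log2 ratio of 2.18. Prodh, proline dehydrogenase, had the largest ratio, 75.9 (43.2 to 148), on about 12 fragments at D0. Gpd2, the mitochondrial glycerol 3-phosphate dehydrogenase, measured 9.88 FPKM at D0 against 82.5 at D7, and Etfdh, which passes on electrons from fatty acid oxidation, measured 23.4 against 106. Dhodh, of pyrimidine synthesis, had the smallest ratio, 1.82 (1.52 to 2.18). All 7 core subunit genes of complex I that were listed had ratios between 2.30 (Ndufs8) and 5.56 (Ndufv1). All 9 listed genes of complex III had ratios between 2.28 (Uqcrh) and 6.29 (Uqcrfs1).

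The median log2 ratios of complex I, complex III and coenzyme Q synthesis genes were 1.80, 1.88 and 1.12 in that order. The ratios of Coq5, Coq6, Coq7 and Coq9 lay within the range of complex III, and those of Pdss1, Pdss2, Coq2, Coq3, Coq4 and Coq10a lay below its lowest value. That value, 2.28 for Uqcrh, lay inside the counting intervals of Coq7, Pdss1, Pdss2, Coq3 and Coq10a. Counting error alone thus does not place these genes on one side of it. The 8 genes of heme synthesis, which make another cofactor of the chain, had a median log2 ratio of 0.80. All 8 were higher at D7, 2 of them by at least 2.0-fold, with Alas1, the first enzyme of the pathway, highest at 4.16 and Cpox lowest at 1.11. No test of the difference between these lists was made.

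**Figure D4:**
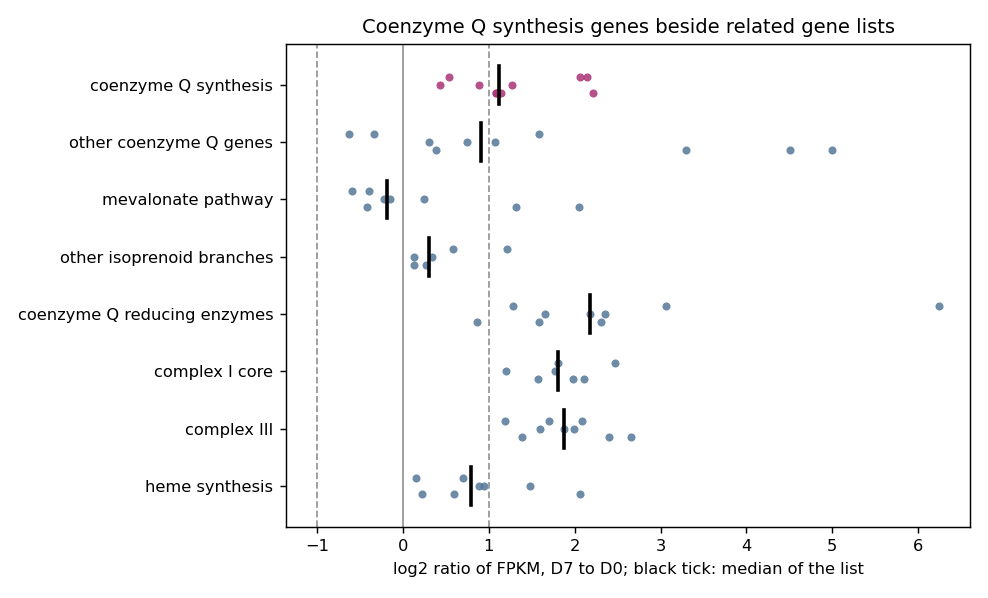
The log2 ratio of FPKM at D7 to D0 for each gene of 8 lists, with 1 point per gene and a black tick at the median of each list, 1 library per stage. The solid line marks 0 and the dashed lines a 2.0-fold difference. The tick of the coenzyme Q synthesis genes, at 1.12, lies right of the mevalonate pathway at -0.19 and left of complex III at 1.88.

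The count of members past 2.0-fold depended on how the libraries were set side by side. In one setting values below 0.01 were raised to 0.01 and both libraries were then scaled to equal medians, which multiplies ratios above that floor by 0.783. There the D7/D0 ratios were 3.64 for Coq6, 3.45 for Coq5 and 3.28 for Coq9. The other 7 genes then had ratios between 1.06 (Coq4) and 1.89 (Coq7), so 3 of 10 passed 2.0-fold, against 13.4% of the 14986 genes. With 1 added to each FPKM, 5 of 10 did, against 9.71% of these genes, as Pdss1 was at 1.77 and Coq3 at 2.00, just short of the threshold. In these and 6 other settings, all 10 ratios stayed above 1. For most settings this was fixed in advance. Adding a constant cannot move a ratio across 1, and each member has 1 row to sum. The remaining scalings multiply every ratio by between 0.967 and 1.03.

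**Figure D5:**
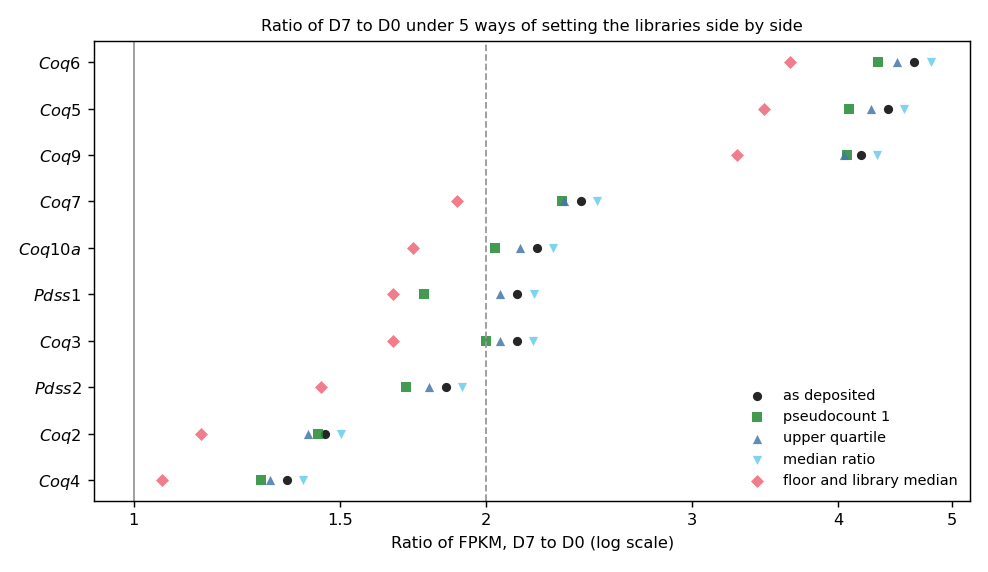
Ratio of FPKM at D7 to D0 per gene on a log axis under 5 settings, shown by marker shape, 1 library per stage. The solid line marks 1 and the dashed line 2.0. Coq6, Coq5 and Coq9 lie right of the dashed line in each, and Pdss2, Coq2 and Coq4 left of it in each.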

How the data were processed

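Per the paper's methods, the authors filtered out low-quality, duplicate and rRNA reads, used SOAP2 to align the rest to mm10 and gene sequences, and deposited FPKM values, which were used here unscaled. The submitters' processing notes name Bowtie2. Genes with a D7/D0 ratio of unscaled values of 2.0 or more, or 0.5 or less, were counted as changed. The threshold is the study's, whose own calls were made in GeneSpring with a scaling that is not given in the sources used here. The counts on unscaled values, 7 of the 10 members among them, are therefore not the study's calls.

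Fragment numbers were estimated from 603 single-exon genes of at least 600 bp. The length correction was 179 bp for D0 and 182 bp for D7. With it, 100% of the low values, up to 20 fragments (81 and 89 of them), were whole within 0.1. The correction and library size were chosen to make this share as large as possible. With shuffled lengths, and both kept rather than chosen anew, the share was 23.4% and 14.3%. Genes with several exons took the length of their named coding transcript, or else of the longest one, so their numbers are approximate. The library sizes had a ratio of 1.18.

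Gene coordinates are of GENCODE M21. All members were named, and of the other lists at least the genes with the largest and smallest ratio. Members, lists and settings were chosen with earlier results of these data known, and the shortest-transcript length and start-site neighbours after values were seen. Scripts were tested on simulated data. Of the other lists, 1 gene is not reported here, and its list was summarised without it. A planned comparison of protein sequences was not made. Versions were Python 3.11.15, numpy 2.4.6 with pandas 2.3.3, matplotlib 3.10.9, and scipy 1.17.1.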

Additional observations from a re-analysis of the deposited data

How the results depend on the processing

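With 1 library per stage, no library could be left out, and how far cultures of a stage differ was not measured. No paired analysis was possible because each stage has 1 library. The count of 7 coenzyme Q synthesis genes past 2.0-fold was 3 with values raised to 0.01 and the libraries scaled to equal medians, where their median log2 ratio was 0.76. It was 3 at a threshold of 4.0-fold, beside 1211 of 14986 genes that were higher by as much. It was 4 when the counting interval itself had to lie past 2.0-fold. The share of all genes with such an interval was not computed. Over the other settings the count of members lay between 5 and 8. Of all genes, 2767 were at least 2.0-fold higher and 1980 at least 2.0-fold lower at D7. With a pseudocount of 1 these counts were 1533 and 1021, at 4.0-fold 1211 and 578, with equal medians 2836 and 3832, and at 1.5-fold 4148 and 3538. The counts with a pseudocount and with equal medians are over all 23361 rows with values, the others over 14986 genes. The median log2 ratio of the other farnesyl diphosphate branches turned to -0.049 with equal medians, a setting that shifts every log2 ratio above the floor by -0.35.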

Other observations

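Of the 10 coenzyme Q synthesis genes, 2 had a coding gene of the other strand whose annotated start lay within 1000 bp, against 10.9% of 21938 coding genes. This feature was chosen after values were seen. The start of Coq6 and that of Fam161b overlap by 176 bp, and Fam161b measured 0.440 FPKM at D0 against 1.00 at D7, a D7/D0 ratio of 2.27 (95% interval 1.44 to 3.66). The starts of Coq9 and Ciapin1, which encodes a factor of iron-sulfur cluster assembly, overlap by 37 bp. Ciapin1 measured 6.90 FPKM at D0 against 8.0 at D7, a D7/D0 ratio of 1.16 (1.03 to 1.30), beside a ratio of 4.18 for Coq9. In both pairs the ratio of the coenzyme Q gene was the larger.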
